A study of Homo sapiens with 34 samples.

Results

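The 50 genes described here encode the digestive contents of the lysosome, its membrane and the proton pump that acidifies it. They comprise 26 lumenal hydrolases and their cofactors, 6 membrane proteins, 15 genes of the vacuolar ATPase (V-ATPase) and 3 transcription factors of the MiT family. The genes were chosen by symbol as a named set and not by a threshold on any measured value. Earlier results of these data were known when they were chosen. They are 50 of the 17587 genes listed in at least 1 of the 6 deposited tables, and 47 of them are among the 13307 genes listed in all 6. *CTSL*, *SGSH* and *ATP6V0A1* are the members missing from at least 1 table.

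RNA was sequenced from 34 samples in 12 groups of human B-cell precursor acute lymphoblastic leukemia cells, and the comparison set loss of cyclin D3 beside inhibition of its partner kinases. The cells were 3 established lines: BV-173, of genotype BCR-ABL, NALM-6, of genotype ETV6-PDGFRB, and RS4;11, of genotype MLL-AF4. In each line, cells carrying a lentiviral CCND3 shRNA were compared with cells carrying a scrambled shRNA, both sorted for the red fluorescent marker of the vector on day 4 after transduction. In separate cultures, cells given the CDK4 and CDK6 inhibitor palbociclib at 1 µM were compared with cells given its solvent DMSO, both collected on day 3. Of the 12 groups, 10 held 3 samples and 2 held 2, namely NALM-6 with CCND3 shRNA and BV-173 with DMSO. Each genotype was represented by a single line, so genotype and line cannot be told apart. The palbociclib cells carried no vector and were collected after 3 days and not 4, and neither difference can be told apart from the agent.

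Lysosomes break down proteins, glycans and lipids with acid hydrolases most of which are sorted there by a mannose phosphate tag. The V-ATPase pumps protons into the lumen with a membrane-embedded V0 sector that is driven by a cytosolic, ATP-hydrolysing V1 sector. TFEB, TFE3 and MITF bind the E-box-like word of many lysosomal promoters, and the mTORC1 kinase keeps them in the cytoplasm. Cyclin D-dependent kinases phosphorylate TFEB and TFE3 inside the nucleus, which favours their export.

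Each table gave 1 level per gene and group, a signal on a count-like scale that the authors had normalized between the 2 groups of the table. The levels of a group summed to between 17800000 and 20800000, and counts per sample were not given, so depth and the spread between replicates are unknown. Ratios are log2 of the treated over the control level. Means over the lines are given with their standard error from limma over n = 3 lines, 1 ratio per line, with p-values adjusted over the 13307 genes listed in all 6 tables and a call at an adjusted p under 0.1. The error is moderated by limma, so it rests on the spread between lines of other genes as well as of the gene itself. It can therefore be larger or smaller than the gene's own spread, and it holds no spread between replicates. Tables were scaled separately, so levels of different tables are set side by side without a test.

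The labels were checked first. *CCND3*, the target of the shRNA, stood at 19499 with scrambled and 4727 with CCND3 shRNA in NALM-6, 16178 and 3353 in RS4;11, and 6619 and 2059.6 in BV-173. Its mean log2 ratio with knockdown was -2.0 ± 0.13 (adjusted p = 0.00555), and with palbociclib it was -0.35 ± 0.13 (adjusted p = 0.126). The treated level was the lower in each line, and only knockdown passed the test. All 12 B-lineage markers were listed in every group. Their summed level ran from 63360 in RS4;11 with DMSO to 137500 in NALM-6 with palbociclib. *RAG1* was the most abundant of them in NALM-6 with DMSO at 25140, and *IGLL1* led in RS4;11 and BV-173 with DMSO at 13380 and 17070. The exceptions lay in RS4;11, where *MME* stood at 3.98 and *BLNK* at 90.2 with DMSO. Of the 12 B-lineage markers, 2 were called higher with knockdown, *CD79B* and *CD22* (4.95% of all genes were). With palbociclib 2 were called higher, *CD79A* among them, and 1 lower, *IGLL1* (11.2% and 13.6% of all genes). In BV-173, 6 of the 12 were at least 1.5-fold lower with palbociclib and 2 higher (11.9% and 13.6% of all genes). Lower and higher were 2 and 2 in NALM-6 (14.9% and 21.4%) and 1 and 5 in RS4;11 (15% and 16.7%).

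Lysosomal genes are abundant in macrophages, so markers of other blood cells were read as well. Of 13 monocyte and macrophage markers, 10 or 11 were listed in a table. *S100A8* and *S100A9* were in none, *CD14* stayed below 10 in each group and *CD163* was below 10 wherever it was listed. Counting markers below 10 together with those not listed, BV-173 had 4 of 13 with DMSO or palbociclib. It had 5 with scrambled or CCND3 shRNA. RS4;11 had 4 with DMSO, 5 with either shRNA and 6 with palbociclib, and each NALM-6 group had 8. Most of the list thus stood at 10 or above in every BV-173 and RS4;11 group. *SPI1*, a factor that B-lineage cells also express, was the most abundant in each group, at 1343 with scrambled and 1785 with CCND3 shRNA in NALM-6, 1835 and 2618 in RS4;11, and 1869 and 3137 in BV-173, and at 1017, 1652 and 1459 with DMSO and 1683, 2011 and 2462 with palbociclib, in the same order of lines. The summed level of the list was 1718 with scrambled and 2388 with CCND3 shRNA in NALM-6, 3550 and 4753 in RS4;11, and 3406 and 5025 in BV-173. With DMSO it was 1412, 2905 and 2984 in the same order of lines, and with palbociclib 2376, 3382 and 5228. Of the 10 tested, 2 were called higher with knockdown and 3 with palbociclib (4.95% and 11.2% of all genes were). *SPI1* and *CD68*, itself a lysosomal membrane protein, were called higher with both treatments. *MS4A7* was called higher with palbociclib. Their part in the results on lysosomal genes was not tested. Of 8 T and NK cell markers, *NKG7* was the most abundant in each group, from 42.3 to 1872, and *CD3D*, *CD3E* and *CD3G* were below 10 or not listed.

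All 10 proliferation genes of a marker list were called lower with both treatments (7.48% of all genes were with knockdown and 13.6% with palbociclib). Their summed level was 72600 with scrambled and 30120 with CCND3 shRNA in NALM-6, 60320 and 17310 in RS4;11, and 57830 and 38490 in BV-173. In the same order of lines it was 80740, 66870 and 54390 with DMSO and 13170, 4696 and 16400 with palbociclib. *TOP2A*, *MKI67* or *MCM2* was the most abundant of them in every group. The difference between the treatments was called for all 10, with the lower ratios under palbociclib (7.16% of all genes were called in that direction). Their part in the results on lysosomal genes was not tested. In these bulk samples fewer cells of a type and less RNA per cell cannot be told apart.

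Divided by gene length, the members ranked high among all genes listed. With DMSO the median percentile of the 47 members listed in all 6 tables was 77.0 in BV-173, 80.2 in NALM-6 and 79.7 in RS4;11. They were ranked among all genes of the line's own table, including genes missing from other tables. That median leaves out *SGSH* at 57.2 and *ATP6V0A1* at 29.2 in RS4;11, and *ATP6V0A1* at 1.73 in BV-173. *ATP6V1F*, a small V1 subunit, had the highest level per 1000 bases in NALM-6 with DMSO (3180) and in RS4;11 (2590). In BV-173 the thioesterase *PPT1* led at 1840 per 1000 bases, next to *ATP6V1F* at 1830 and *PSAP* at 1820. *ATP6V0C*, which forms the proton-carrying ring, stood at 2050 per 1000 bases in NALM-6 and 2110 in RS4;11 with DMSO. Over the 3 DMSO groups, 31 of 47 members stayed within 2-fold and 4 spread over more than 10-fold. Neither count was compared with all genes. Those 4 were *CTSH* (1170-fold), *MITF* (760-fold), *IDS* (37.0-fold) and *CTSZ* (19.8-fold), each highest in RS4;11.

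**Figure D1:**
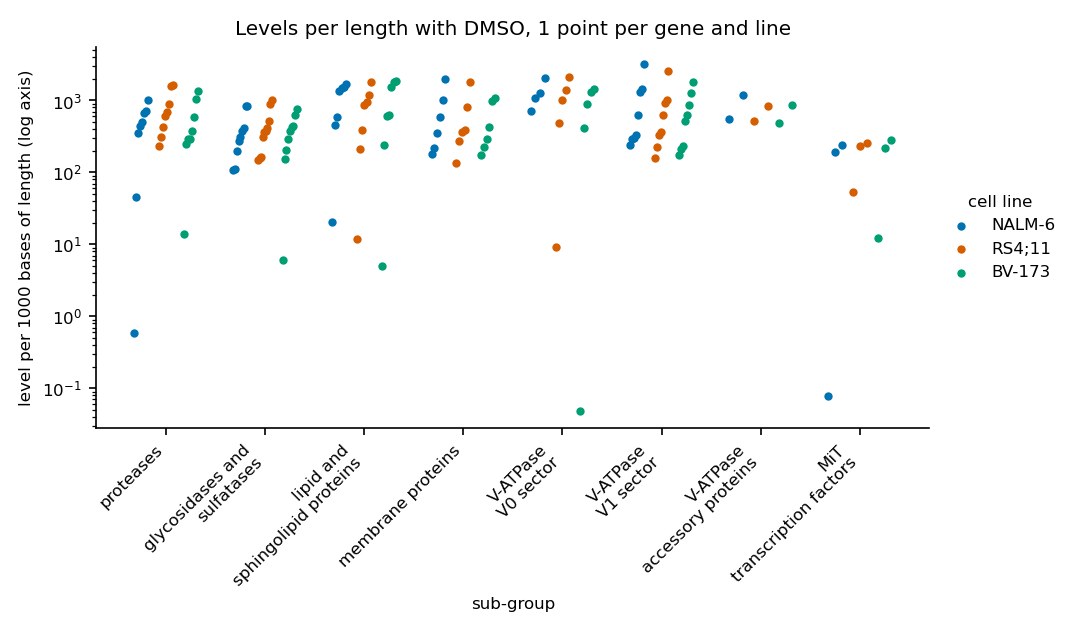
Level per 1000 bases of gene length (log axis) of each member in the DMSO group of each cell line, with 1 point per gene and line, by role of the gene. The median point lies at 503 in NALM-6, and the lowest are ATP6V0A1 in BV-173 and MITF and the protease CTSH in NALM-6.

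Of the members missing from some tables, *SGSH* and *ATP6V0A1* were above a level of 1 in RS4;11 alone. The sulfatase *SGSH* stood at 629.7 with scrambled and 1460 with CCND3 shRNA in RS4;11, and at 468 with DMSO and 1115 with palbociclib. It was at 0.412 or below in the NALM-6 and BV-173 knockdown tables and absent from their palbociclib tables. *ATP6V0A1*, an isoform of the large V0 subunit, stood at 63.0 and 251 in the RS4;11 knockdown table and at 38.1 and 149.8 in its palbociclib table. Elsewhere it was at 0.404 or below or not listed. In RS4;11 the log2 ratios were 1.21 and 1.25 for *SGSH* and 2.00 and 1.97 for *ATP6V0A1*, knockdown first, and neither gene could enter the test over the 3 lines. *CTSL* was listed only in the RS4;11 knockdown table, at 0.170 and 0.158.

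Because the MiT factors read a short word in promoters, the promoter windows of the members were searched for it. The word TCACGTGA, the core of the motif of lysosomal genes, reads the same on both strands and contains the general E-box CACGTG. Windows held 250 bases before to 50 bases after a gene's start (RefSeq, GRCh38.p14), and 37 of the 50 members had 1. TCACGTGA was in the windows of 6 of these 37 members (16.2%), against 1.18% of the 27305 genes with a window and 2.17% of the 10840 of them that were listed in all 6 tables. CACGTG was in those of 10 members (27.0%), against 8.77% of the genes with a window and 12.5% of those listed. Counted by window, TCACGTGA was in 11.3% of the members' 53 and 0.98% of all 35116, and CACGTG in 18.9% and 7.26%. The 6 are shown since they carry the word, 5′ to 3′ on the strand of the gene, with TCACGTGA in capitals. *LAMP1* (chr13:113297194-113297260, plus strand) holds it 2 times, beginning 29 and 2 bases before the start, and *MCOLN1* (chr19:7522566-7522632, plus) 2 times, 42 and 15 bases before. *GAA* (chr17:80101488-80101572, plus) holds it 2 times as well, 77 and 32 bases before the start. A single copy lies 26 bases before the start of *CTSA* (chr20:45891085-45891384, plus), 60 bases before that of *ATP6V0D1* (chr16:67481108-67481407, minus) and 59 bases before that of *ATP6V1G1* (chr9:114587694-114587733, plus). For *CTSA* and *ATP6V0D1* the whole window is given.
LAMP1: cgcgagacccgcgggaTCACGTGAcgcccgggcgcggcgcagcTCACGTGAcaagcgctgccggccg
MCOLN1: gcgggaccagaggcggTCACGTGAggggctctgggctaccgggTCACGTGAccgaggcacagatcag
CTSA: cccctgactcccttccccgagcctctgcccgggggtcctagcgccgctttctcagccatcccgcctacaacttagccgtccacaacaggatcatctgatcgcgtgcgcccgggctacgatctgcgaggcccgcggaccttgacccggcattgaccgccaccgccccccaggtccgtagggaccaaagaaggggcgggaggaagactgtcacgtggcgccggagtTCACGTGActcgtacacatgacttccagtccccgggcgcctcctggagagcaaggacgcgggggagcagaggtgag
GAA: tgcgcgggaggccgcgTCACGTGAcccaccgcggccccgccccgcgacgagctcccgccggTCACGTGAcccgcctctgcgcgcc
ATP6V0D1: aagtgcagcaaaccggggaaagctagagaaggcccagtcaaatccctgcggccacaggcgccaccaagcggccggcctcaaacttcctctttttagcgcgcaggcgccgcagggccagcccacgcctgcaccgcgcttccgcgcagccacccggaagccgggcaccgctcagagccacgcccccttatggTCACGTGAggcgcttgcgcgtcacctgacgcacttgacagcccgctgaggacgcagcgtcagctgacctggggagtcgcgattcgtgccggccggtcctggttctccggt
ATP6V1G1: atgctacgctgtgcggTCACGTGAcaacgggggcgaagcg
Of the 6, *CTSA*, *GAA*, *ATP6V0D1* and *ATP6V1G1* were called higher with both treatments, *LAMP1* with palbociclib only and *MCOLN1* with neither. Among the 29 tested members whose window lacked the word, 12 were called higher with knockdown and 13 with palbociclib. Over all genes, 4.68% of the 235 with the word and 4.96% of the 10605 without it were called higher with knockdown. With palbociclib the shares were 20.0% and 10.9%. With the members left out they were 3.06% and 4.86% with knockdown and 18.3% and 10.8% with palbociclib. A match describes the letters of the window and shows no binding.

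With *CCND3* knockdown, the members lay above the genes at large in each line. At least 1.5-fold higher were 10 of 49 listed members in NALM-6 (7.82% of all genes were), 18 of 50 in RS4;11 (9.73% of all genes) and 6 of 49 in BV-173 (3.32% of all genes). At least 1.5-fold lower were 2 in NALM-6 (8.47% of all genes), 2 in RS4;11 (9.72%) and 0 in BV-173 (4.78%). These counts in single lines rest on 1 level per group and carry no test. The members' median log2 ratio was 0.44 in RS4;11, 0.30 in BV-173 and 0.22 in NALM-6, where all genes had medians of 0.01, -0.01 and 0.01. Higher in all 3 lines were 32 of 47 members (22.5% of all genes were) and lower in all 3 were 3 (23.3%). Only *SMPD1* and *ASAH1* were past 1.5-fold in all 3, both higher (0.609% of all genes were past it higher and 1.83% lower).

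Over the 3 lines, limma called 22 of the 47 members higher with knockdown, where 4.95% of all genes were called higher. It called 1 lower, *ATP6V1C1*, where 7.48% of all genes were. The 22 were 12 hydrolases or cofactors, 7 V-ATPase genes, *SCARB2*, *TFEB* and *TFE3*. The median of the members' mean log2 ratios was 0.37 and that of all genes 0.00, and without RS4;11 the members' median was 0.24. The count depended on the lines used: 10 were called higher without NALM-6, 5 without RS4;11 and 22 without BV-173, where 2.09%, 0.917% and 6.99% of all genes were. Without the intensity trend in limma 8 were called higher (2.09% of all genes), and at an adjusted p under 0.05 9 were (2.00%).

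With palbociclib, 10 of 47 listed members were at least 1.5-fold higher in NALM-6 (21.4% of all genes were), 23 of 49 in RS4;11 (16.7%) and 20 of 48 in BV-173 (13.6%). At least 1.5-fold lower were 1 in NALM-6 (14.9% of all genes), 1 in RS4;11 (15% of all genes) and 0 in BV-173 (11.9%). In NALM-6 the share of members that were higher was thus near that of all genes. Median log2 ratios of the members were 0.50 in RS4;11, 0.43 in BV-173 and 0.29 in NALM-6, where all genes had 0.01, 0.04 and 0.06. Higher in all 3 lines were 32 of 47 members (28.3% of all genes were), and lower in all 3 were 2 (26.9%). Past 1.5-fold in all 3 lines were 6 members, all higher: *CTSA*, *IDS*, *NEU1*, *SMPD1*, *ATP6V0D1* and *ATP6V0E1* (4.66% of all genes were past it higher and 6.16% lower).

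Limma called 22 of the 47 members higher with palbociclib (11.2% of all genes were) and 1 lower, *GUSB* (13.6% of all genes). The 22 were 15 hydrolases or cofactors, 6 V-ATPase genes and *LAMP1*. The median of the mean log2 ratios was 0.44 and that of all genes 0.04. Without RS4;11 10 were called higher (5.78% of all genes), without BV-173 14 (7.49%) and without the intensity trend 14 (8.44%). Called higher with both treatments were 16 members, 72.7% of each treatment's 22. Of all genes 353 were, 53.6% of those called higher with knockdown and 23.7% of those with palbociclib.

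**Figure D2:**
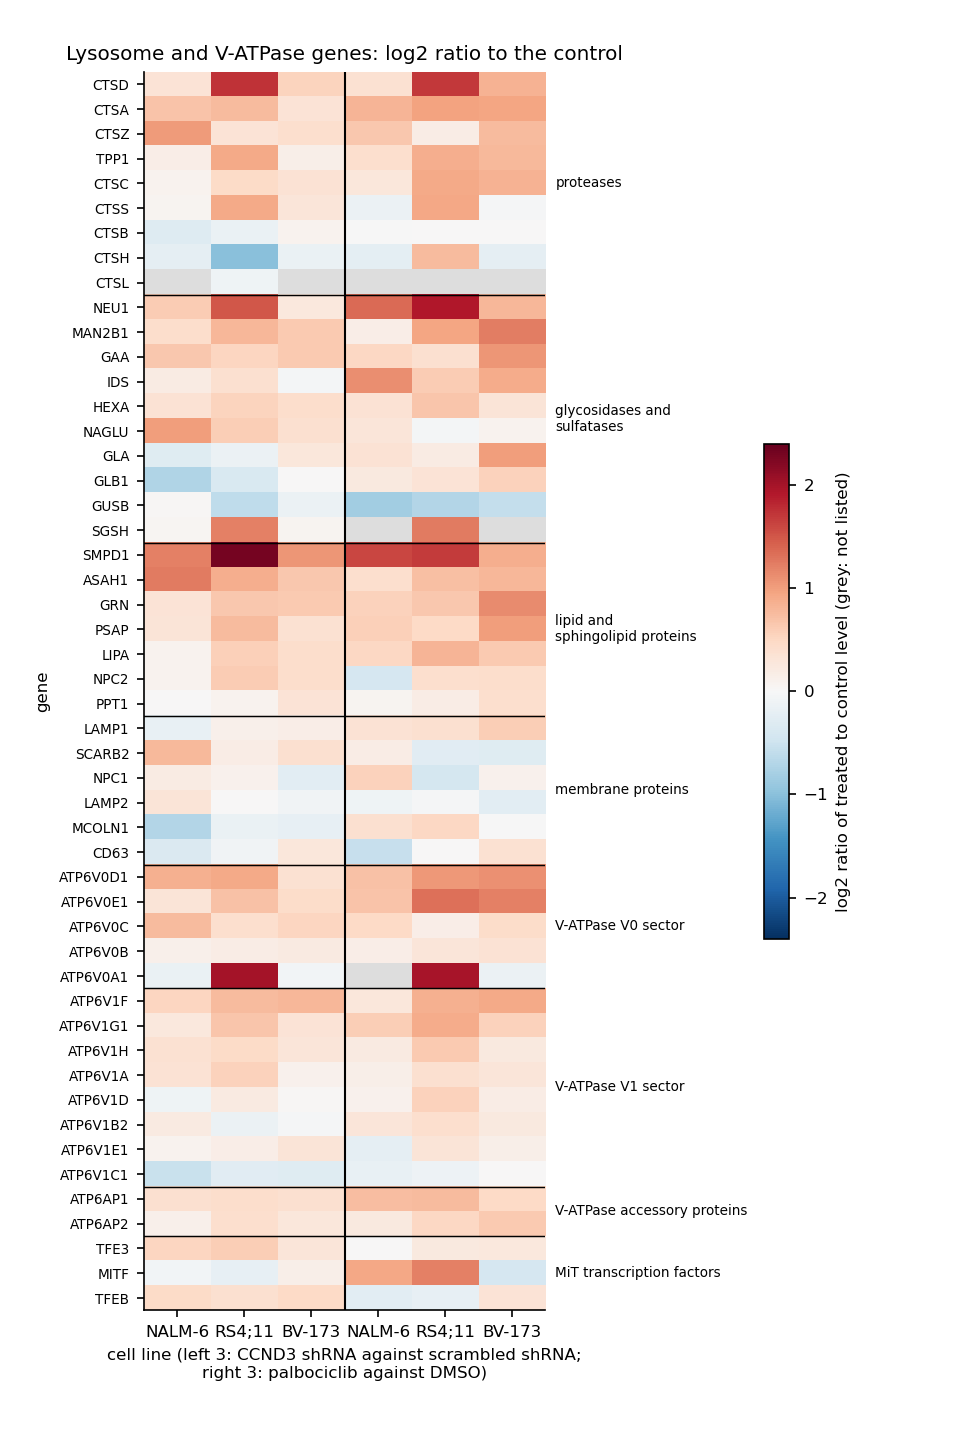
Log2 ratio of the treated to the control level for each member (vertical axis, by role) in each cell line (horizontal axis), with knockdown in the left 3 columns and palbociclib in the right 3. Red marks higher and blue lower levels, grey marks genes not listed, and the darkest red is SMPD1 in RS4;11 with knockdown (2.29).

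RS4;11 was the line with the highest knockdown ratio for 25 of 47 members (53.2%), against 28.6% of all genes. NALM-6 was for 10 (21.3%, against 32.1% of all genes) and BV-173 for 12 (25.5%, against 39.3%). With palbociclib RS4;11 and BV-173 were each highest for 21 members (44.7%) and NALM-6 for 5 (10.6%), where all genes had 27.2%, 36.6% and 36.2%. With 1 ratio per line, differences between lines could not be tested. No member was past 1.5-fold in opposite directions in 2 lines of a treatment, a count that was not compared with all genes.

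**Figure D3:**
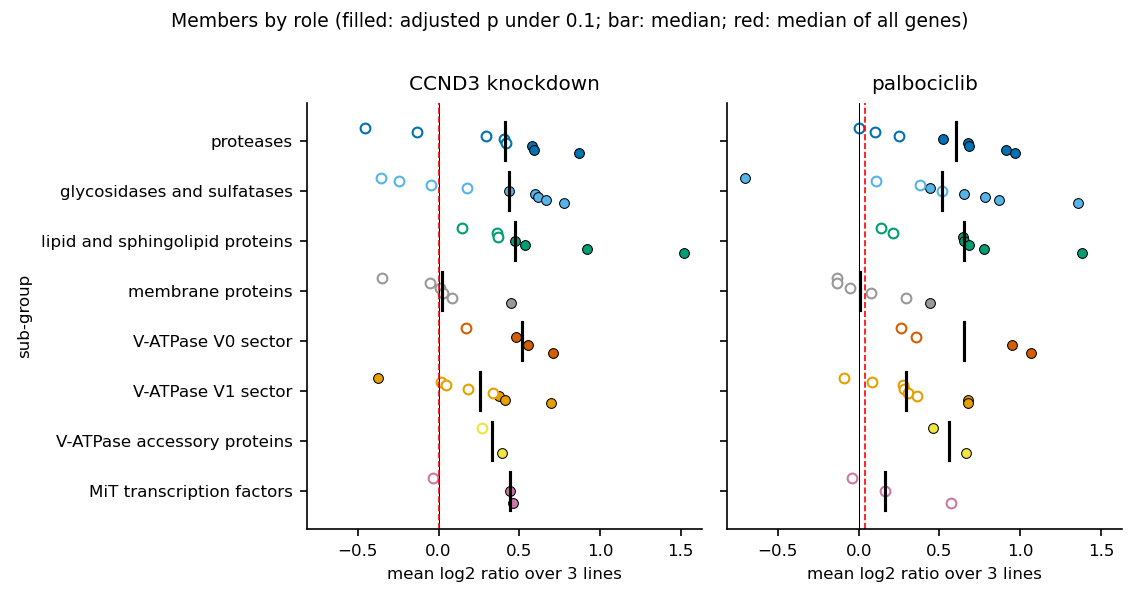
Mean log2 ratio over the 3 lines (horizontal axis) of each member listed in all 6 tables, by role (vertical axis), with knockdown and palbociclib in separate panels. Filled points were called, bars mark the median of the role and the red line that of all genes. The membrane proteins lie on both sides of the red line, with medians of 0.02 and 0.01. Of them SCARB2 was called with knockdown (0.45) and LAMP1 with palbociclib (0.44).

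The lipid and sphingolipid proteins, among which *GRN*, *NPC2* and *PPT1* were also put, included *SMPD1*, the member with the largest mean ratio under knockdown. With palbociclib its mean lay just above that of *NEU1*, and *NEU1* had the higher mean of the pair with 1 added to each level and without NALM-6 or BV-173. Of 7 such members, 4 were called higher with knockdown (4.95% of all genes were) and 5 with palbociclib (11.2%), with medians of 0.48 and 0.65. *SMPD1* (gene ID 6609, chr11:6390474-6394996) encodes acid sphingomyelinase, which cuts sphingomyelin to ceramide. It stood at 46.0 with scrambled and 106 with CCND3 shRNA in NALM-6, 47.1 and 229.9 in RS4;11, and 13.6 and 28.3 in BV-173. Its levels were 51.1, 29.7 and 12.3 with DMSO and 155, 94.8 and 22.6 with palbociclib, in the same order of lines. Treated groups were above their controls in every line, although the gene was scarce in BV-173. The mean log2 ratio was 1.52 ± 0.28 (adjusted p = 0.0255) with knockdown and 1.38 ± 0.29 (adjusted p = 0.0301) with palbociclib. Over the alternative settings the adjusted p ran from 0.0234 to 0.0792 with knockdown and from 0.0301 to 0.106 with palbociclib. The setting with a mean level of at least 100 left *SMPD1* out and is not among them.

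*ASAH1* encodes acid ceramidase, the enzyme that takes ceramide on to sphingosine. Its levels were 952 with scrambled and 2261 with CCND3 shRNA in NALM-6, 542 and 989 in RS4;11, and 546 and 855 in BV-173. *ASAH1* stood at 1586, 577 and 649 with DMSO and 2106, 956 and 1131 with palbociclib, in the same order of lines. NALM-6 had the largest knockdown ratio of the lines and the smallest palbociclib ratio. The means were 0.92 ± 0.14 (adjusted p = 0.0189) with knockdown and 0.65 ± 0.14 (adjusted p = 0.0317) with palbociclib. *PSAP*, the precursor of the saposins that present lipids to these enzymes, ranged from 3963 to 10537 over the 12 groups and was called higher with both treatments at 0.48 ± 0.12 (adjusted p = 0.0558) and 0.68 ± 0.15 (adjusted p = 0.0329). *GRN*, the precursor of the granulins, ranged from 2792 to 7847 and was called at 0.54 ± 0.11 (adjusted p = 0.0296) and 0.78 ± 0.15 (adjusted p = 0.0243). *LIPA*, the acid lipase for cholesteryl esters, was called with palbociclib at 0.65 ± 0.13 (adjusted p = 0.0234) and not with knockdown at 0.36 ± 0.12 (adjusted p = 0.131). *PPT1* and the cholesterol carrier *NPC2* were called with neither treatment.

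Proteases made up 8 of the members tested, of which 3 were called higher with knockdown (4.95% of all genes) and 5 with palbociclib (11.2%), with medians of 0.41 and 0.60. *CTSD* (gene ID 1509, chr11:1752755-1763927) encodes cathepsin D, the aspartyl protease of the lumen. Its levels were 1306 with scrambled and 1645 with CCND3 shRNA in NALM-6, 4937 and 16482 in RS4;11, and 2129 and 3069 in BV-173. It stood at 1421, 3540.3 and 2249 with DMSO and 1839, 11486 and 4032 with palbociclib, in the same order of lines. RS4;11 had the highest control levels and the largest ratios of the lines with both treatments. Mean log2 ratios were 0.87 ± 0.24 (adjusted p = 0.0794) with knockdown and 0.97 ± 0.25 (adjusted p = 0.049) with palbociclib. Over the alternative settings the adjusted p ran from 0.0245 to 0.222 and from 0.0457 to 0.117, so that neither call held in all of them. Without RS4;11 the means were 0.43 and 0.61.

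*CTSA* encodes cathepsin A, which also shields the sialidase NEU1 and the galactosidase GLB1 in a shared complex. Its promoter is among those printed above. It ranged from 907 to 2555 over the groups and was called higher with both treatments, at 0.59 ± 0.12 (adjusted p = 0.0334) and 0.91 ± 0.12 (adjusted p = 0.00938). *CTSZ*, a carboxypeptidase, was called at 0.58 ± 0.17 (adjusted p = 0.09) and 0.52 ± 0.18 (adjusted p = 0.0973). *CTSC*, the dipeptidyl peptidase that activates granule serine proteases, stood at 1623 with scrambled and 1722 with CCND3 shRNA in NALM-6, 3237 and 4451 in RS4;11, and 3490.1 and 4435 in BV-173. Its levels were 1548, 3538 and 3151 with DMSO and 1879.9, 6654 and 5629.7 with palbociclib, in the same order of lines. The mean was 0.30 ± 0.11 (adjusted p = 0.15) with knockdown and 0.68 ± 0.16 (adjusted p = 0.0404) with palbociclib, which alone passed the test. Over the alternatives the palbociclib p of *CTSC* ran from 0.0367 to 0.154. *TPP1*, a tripeptidyl peptidase, was called with palbociclib at 0.68 ± 0.14 (adjusted p = 0.0268) and not with knockdown at 0.41 ± 0.16 (adjusted p = 0.176).

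The cysteine proteases *CTSB*, *CTSH* and *CTSS* were called with neither treatment. *CTSB* gave -0.13 ± 0.12 (adjusted p = 0.559) and 0.00 ± 0.12 (adjusted p = 0.999). *CTSH*, an aminopeptidase, was an RS4;11 gene, at 1.27 with scrambled and 1.10 with CCND3 shRNA in NALM-6, 685 and 342 in RS4;11, and 10.7 and 9.56 in BV-173. *CTSH* stood at 0.900, 1049 and 21.1 with DMSO and 0.765, 1772 and 18.1 with palbociclib, in the same order of lines. In RS4;11 the treated level was below the control with knockdown and above it with palbociclib, while NALM-6 held next to none of the transcript. The means were -0.46 ± 0.24 (adjusted p = 0.304) and 0.10 ± 0.33 (adjusted p = 0.859). *CTSS*, which trims the class II invariant chain, had a log2 ratio near 0.9 in RS4;11 with both treatments (0.90 and 0.92) and small ones elsewhere.

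Of 9 glycosidases and sulfatases, knockdown gave 5 called higher (4.95% of all genes), and palbociclib gave 5 called higher (11.2%) and 1 lower (13.6%), with medians of 0.44 and 0.52. *NEU1* (gene ID 4758, chr6:31857659-31862821) encodes the lysosomal sialidase. It stood at 514 with scrambled and 781 with CCND3 shRNA in NALM-6, 312 and 879 in RS4;11, and 396 and 469 in BV-173. It stood at 411, 307 and 433 with DMSO and 1052, 1166 and 754 with palbociclib, in the same order of lines. Palbociclib groups were above their controls by more than knockdown groups in each line. Mean log2 ratios were 0.78 ± 0.23 (adjusted p = 0.0859) with knockdown and 1.36 ± 0.23 (adjusted p = 0.0167) with palbociclib. The difference, knockdown less palbociclib, was -0.58 ± 0.14 (adjusted p = 0.0648). The adjusted p ran from 0.0466 to 0.388 with knockdown over the alternative settings, and from 0.0116 to 0.075 with palbociclib, so that only the palbociclib call held in all of them. The knockdown mean without RS4;11 was 0.42.

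*GUSB* (gene ID 2990, chr7:65960684-65982213) encodes the beta-glucuronidase and was the only member called lower with palbociclib. Its levels were 1951 with DMSO and 1089 with palbociclib in NALM-6, 2064 and 1267 in RS4;11, and 1449.6 and 979.6 in BV-173. *GUSB* stood at 1689, 2195 and 1514 with scrambled and 1722, 1434 and 1366 with CCND3 shRNA, in the same order of lines. The palbociclib level was below the control in every line, while with knockdown NALM-6 stood slightly above it. The means were -0.70 ± 0.12 (adjusted p = 0.018) with palbociclib and -0.25 ± 0.14 (adjusted p = 0.337) with knockdown. Over the alternative settings the adjusted p with palbociclib ran from 0.016 to 0.0805.

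Among the rest, *GAA*, the acid alpha-glucosidase of glycogen breakdown, was called higher with both treatments at 0.60 ± 0.10 (adjusted p = 0.0216) and 0.65 ± 0.16 (adjusted p = 0.0479). *MAN2B1*, the alpha-mannosidase, was called at 0.62 ± 0.11 (adjusted p = 0.0225) and 0.78 ± 0.21 (adjusted p = 0.0591), and *HEXA*, a subunit of beta-hexosaminidase, at 0.44 ± 0.11 (adjusted p = 0.0534) and 0.44 ± 0.13 (adjusted p = 0.0744). *NAGLU*, which acts on heparan sulfate, was called with knockdown at 0.66 ± 0.16 (adjusted p = 0.056) and not with palbociclib at 0.11 ± 0.16 (adjusted p = 0.677). *IDS*, the iduronate sulfatase, stood at 1087 with scrambled and 1246 with CCND3 shRNA in NALM-6, 1692 and 2210.2 in RS4;11, and 62.8 and 60.5 in BV-173. Its levels were 764, 1720.3 and 46.4 with DMSO and 1652, 2611 and 86.5 with palbociclib, in the same order of lines. BV-173 held little of it, and each palbociclib group lay above its control. *IDS* was called with palbociclib at 0.87 ± 0.16 (adjusted p = 0.0219) and not with knockdown at 0.18 ± 0.14 (adjusted p = 0.498).

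*GLB1*, the beta-galactosidase, and *GLA*, the alpha-galactosidase, were called with neither treatment alone. *GLB1* stood at 877 with scrambled and 535 with CCND3 shRNA in NALM-6, 1127 and 873 in RS4;11, and 705 and 710.2 in BV-173. *GLB1* stood at 813, 1068 and 766 with DMSO and 958, 1347 and 1128 with palbociclib, in the same order of lines. Knockdown levels were below the controls in NALM-6 and RS4;11, and palbociclib levels were above them in each line. *GLA* stood at 639.7 with scrambled and 523 with CCND3 shRNA in NALM-6, 440 and 401 in RS4;11, and 610.1 and 739 in BV-173. It stood at 596, 516 and 528 with DMSO and 757, 589 and 1065 with palbociclib, in the same order of lines. Means for *GLB1* were -0.36 ± 0.15 (adjusted p = 0.205) with knockdown and 0.38 ± 0.14 (adjusted p = 0.113) with palbociclib, and those for *GLA* were -0.05 ± 0.15 (adjusted p = 0.88) and 0.52 ± 0.20 (adjusted p = 0.129).

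**Figure D4:**
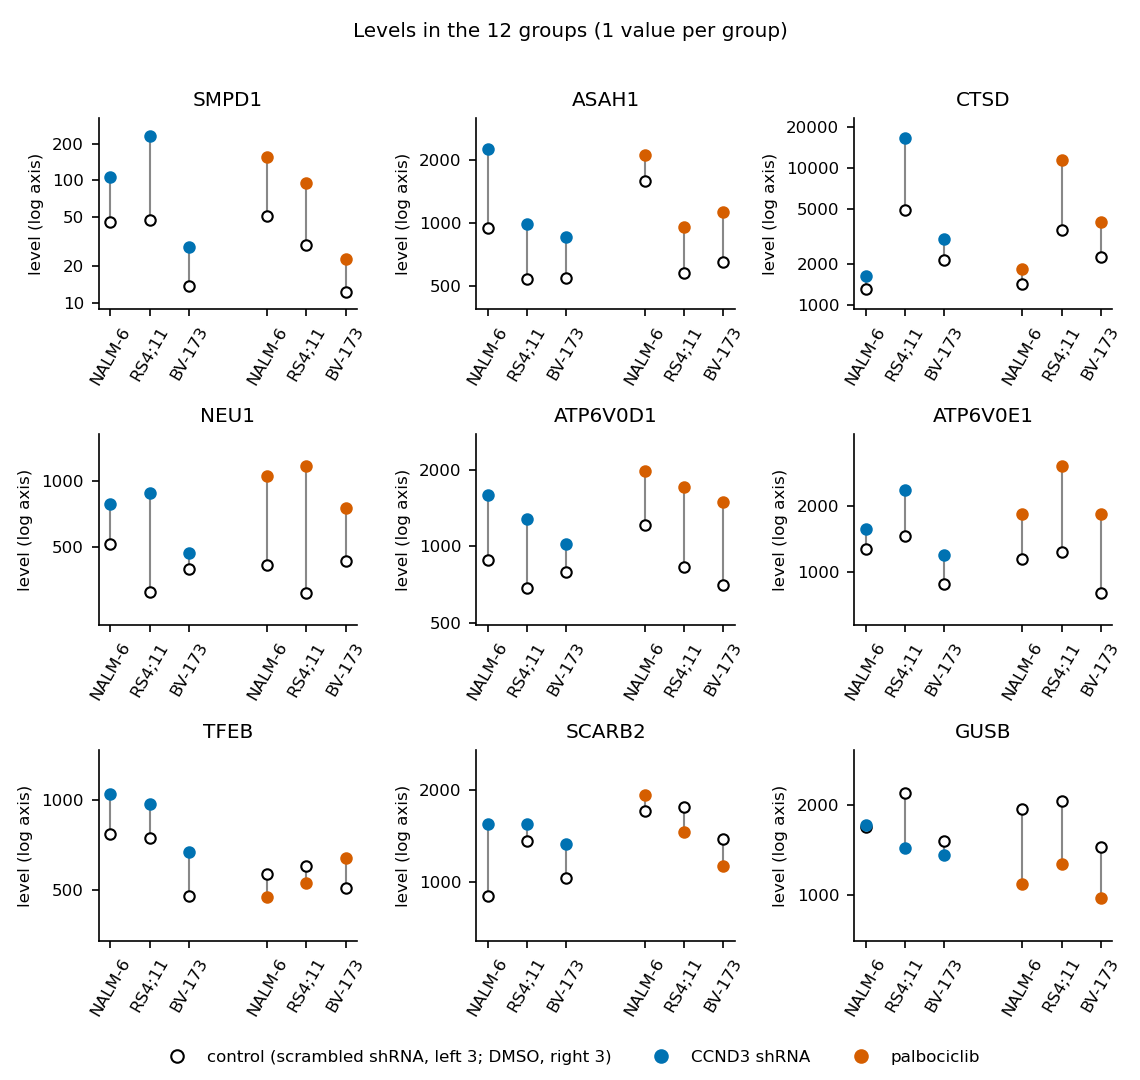
Level (log axis) of 9 members in each of the 12 groups, with the control as an open point and the treated group as a filled point joined to it, by cell line with knockdown on the left and palbociclib on the right of each panel. SMPD1 is higher than its control in all 6 comparisons, GUSB is lower in all 3 lines with palbociclib, and TFEB is higher in all 3 with knockdown.

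Membrane proteins among the members had medians of 0.02 with knockdown and 0.01 with palbociclib over 6 genes, which were not tested against the enzymes. The 28 further membrane proteins and transporters had medians of 0.16 and 0.38. *SCARB2* (gene ID 950, chr4:76158737-76234532) encodes LIMP-2, the carrier of glucocerebrosidase to the lysosome. It stood at 902 with scrambled and 1549 with CCND3 shRNA in NALM-6, 1363 and 1548 in RS4;11, and 1030.3 and 1336 in BV-173. Its levels were 1707, 1763 and 1384 with DMSO and 1925, 1456 and 1128 with palbociclib, in the same order of lines. The knockdown level was above its control in every line, and the palbociclib level was above it in NALM-6 alone. The mean was 0.45 ± 0.14 (adjusted p = 0.0969) with knockdown, just inside the threshold, and -0.13 ± 0.14 (adjusted p = 0.561) with palbociclib. Over the alternative settings the knockdown p ran from 0.0859 to 0.437, and the mean without NALM-6 was 0.28.

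*LAMP1* (gene ID 3916, chr13:113297239-113323672), with *LAMP2* the main glycoprotein of the membrane, has the promoter with 2 copies of TCACGTGA printed above. Its levels were 2646 with DMSO and 3377 with palbociclib in NALM-6, 2103 and 2738 in RS4;11, and 2750.3 and 4126 in BV-173. *LAMP1* stood at 2828, 2145 and 2777 with scrambled and 2484, 2322 and 3102 with CCND3 shRNA, in the same order of lines. Each palbociclib group was above its control, and knockdown groups lay on both sides. The mean was 0.44 ± 0.12 (adjusted p = 0.0582) with palbociclib and 0.03 ± 0.11 (adjusted p = 0.905) with knockdown. Over the alternative settings the palbociclib p ran from 0.0517 to 0.197.

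*LAMP2* stood at 2029 with scrambled and 2516 with CCND3 shRNA in NALM-6, 1812 and 1829 in RS4;11, and 1663 and 1576 in BV-173. *LAMP2* stood at 2428, 1693 and 1804 with DMSO and 2252, 1652 and 1510.3 with palbociclib, in the same order of lines. The means of 0.08 ± 0.11 (adjusted p = 0.718) and -0.13 ± 0.12 (adjusted p = 0.474) did not pass the test. *CD63*, a tetraspanin of late endosomes, stood at 2120.5 with scrambled and 1667 with CCND3 shRNA in NALM-6, 1623 and 1529.8 in RS4;11, and 1138 and 1378 in BV-173. It stood at 1958, 1698 and 947 with DMSO and 1339, 1714 and 1226 with palbociclib, in the same order of lines. With both treatments the treated level was below the control in NALM-6 and above it in BV-173, and the means were -0.05 ± 0.14 (adjusted p = 0.859) and -0.05 ± 0.19 (adjusted p = 0.868). *MCOLN1*, a cation channel of the membrane with 2 copies of TCACGTGA in its promoter, stood at 420 with scrambled and 259 with CCND3 shRNA in NALM-6, 269.7 and 243 in RS4;11, and 316 and 276 in BV-173. Its levels were 381, 284 and 372 with DMSO and 494, 401 and 371 with palbociclib, in the same order of lines. Its means of -0.35 ± 0.17 (adjusted p = 0.255) and 0.29 ± 0.18 (adjusted p = 0.319) did not pass the test. *NPC1*, which exports cholesterol, gave 0.01 ± 0.13 (adjusted p = 0.977) and 0.08 ± 0.20 (adjusted p = 0.823).

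Of the 14 V-ATPase genes tested, 7 were called higher with knockdown (4.95% of all genes) and 1 lower (7.48%). Palbociclib gave 6 called higher (11.2%) and 0 lower (13.6%, and 0 members lower also at an unadjusted p under 0.05), with medians of 0.35 and 0.36. The V0 sector gave 3 of 4 with knockdown and 2 with palbociclib. *ATP6V0D1* (gene ID 9114, chr16:67438019-67481157) encodes the d subunit, which joins the ring to the central stalk. It stood at 881 with scrambled and 1591 with CCND3 shRNA in NALM-6, 684 and 1276 in RS4;11, and 793 and 1026 in BV-173. *ATP6V0D1* stood at 1212, 829 and 701 with DMSO and 1979, 1710.3 and 1496 with palbociclib, in the same order of lines. Each treated group was above its control, and the promoter printed above holds a single TCACGTGA. The means were 0.71 ± 0.14 (adjusted p = 0.0284) with knockdown and 0.95 ± 0.14 (adjusted p = 0.0119) with palbociclib. Across the alternative settings the p ran from 0.0109 to 0.12 with knockdown and from 0.0116 to 0.0474 with palbociclib.

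*ATP6V0E1* (gene ID 8992, chr5:172983771-173035445) encodes the small e subunit of V0. It stood at 1274 with scrambled and 1573 with CCND3 shRNA in NALM-6, 1459 and 2366 in RS4;11, and 884 and 1198 in BV-173. It stood at 1146, 1230.5 and 796 with DMSO and 1837, 3063 and 1836 with palbociclib, in the same order of lines. Treated levels were above their controls throughout, by more with palbociclib in each line. The means were 0.48 ± 0.12 (adjusted p = 0.0537) with knockdown and 1.07 ± 0.16 (adjusted p = 0.0125) with palbociclib. Over the alternatives the p ran from 0.0474 to 0.337 with knockdown and from 0.0122 to 0.0487 with palbociclib. *ATP6V0C* was called with knockdown at 0.56 ± 0.11 (adjusted p = 0.0293) and not with palbociclib at 0.36 ± 0.13 (adjusted p = 0.11). *ATP6V0B*, also part of the ring, was called with neither at 0.17 ± 0.10 (adjusted p = 0.341) and 0.26 ± 0.12 (adjusted p = 0.18).

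Of 8 subunits of the V1 sector, 3 were called higher (4.95% of all genes were) and 1 lower (7.48%) with knockdown and 2 higher with palbociclib (11.2%). *ATP6V1F*, of the central stalk, was called with both at 0.69 ± 0.11 (adjusted p = 0.0189) and 0.68 ± 0.16 (adjusted p = 0.0419), as was *ATP6V1G1*, of the peripheral stalks, at 0.41 ± 0.12 (adjusted p = 0.0813) and 0.68 ± 0.13 (adjusted p = 0.0223). *ATP6V1H*, the regulatory H subunit, was called with knockdown at 0.37 ± 0.11 (adjusted p = 0.0846) and not with palbociclib at 0.36 ± 0.14 (adjusted p = 0.14). The core subunits *ATP6V1A* and *ATP6V1B2*, which form the ATP-hydrolysing head, were called with neither, nor were *ATP6V1D* and *ATP6V1E1*. Their means ran from 0.02 for *ATP6V1B2* to 0.34 for *ATP6V1A* with knockdown and from 0.08 for *ATP6V1E1* to 0.31 for *ATP6V1B2* with palbociclib.

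*ATP6V1C1* encodes the C subunit that clamps V1 to V0. It stood at 1542 with scrambled and 1060.1 with CCND3 shRNA in NALM-6, 1458 and 1202 in RS4;11, and 3876 and 3156 in BV-173. Its levels were 1357, 1874 and 3568 with DMSO and 1202, 1732 and 3601 with palbociclib, in the same order of lines. Each knockdown group was below its control, and palbociclib groups lay close to theirs. It was the only member called lower with knockdown, at -0.37 ± 0.11 (adjusted p = 0.0825), and palbociclib gave -0.09 ± 0.12 (adjusted p = 0.62). The knockdown call was not made without NALM-6 or RS4;11, without the trend or at an adjusted p under 0.05. Over the alternatives its adjusted p ran from 0.0735 to 0.385. Both accessory proteins of the pump, *ATP6AP1* and *ATP6AP2*, were called higher with palbociclib at 0.66 ± 0.12 (adjusted p = 0.0219) and 0.46 ± 0.14 (adjusted p = 0.072). With knockdown *ATP6AP1* was called at 0.39 ± 0.10 (adjusted p = 0.0535) and *ATP6AP2* was not at 0.27 ± 0.11 (adjusted p = 0.197).

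**Figure D5:**
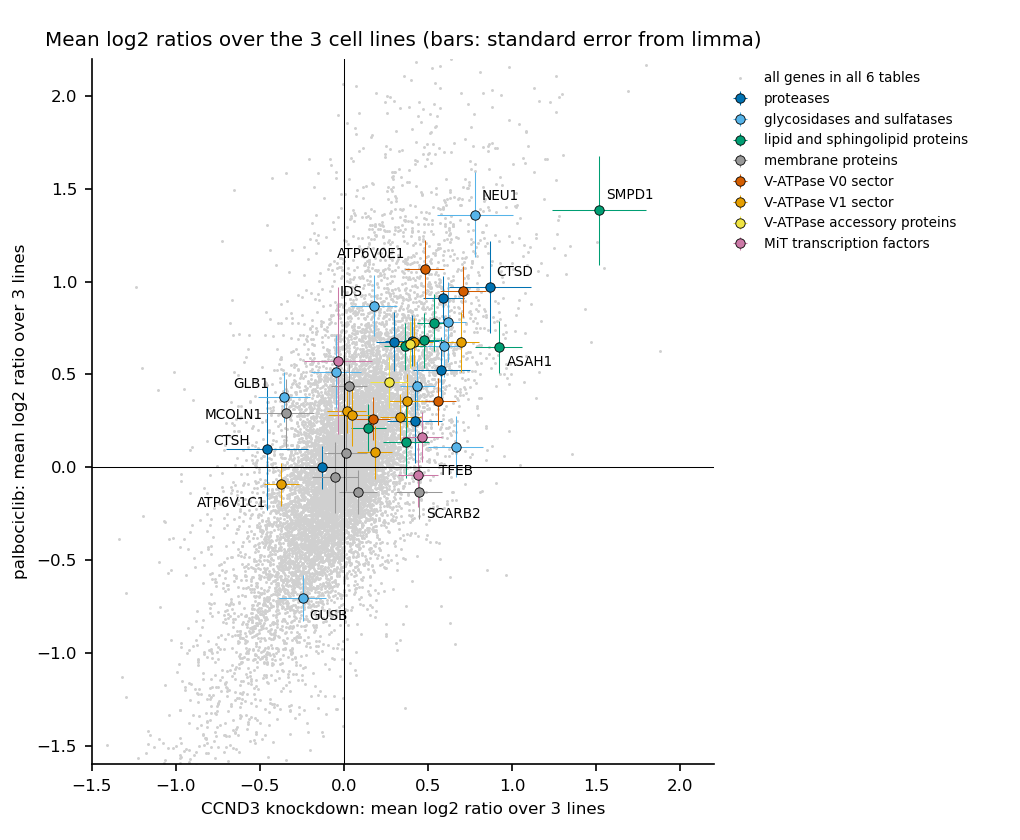
Mean log2 ratio over the 3 lines with palbociclib (vertical axis) against that with CCND3 knockdown (horizontal axis) for the 47 members, coloured by role with standard errors, over all genes listed in all 6 tables in grey. SMPD1 lies farthest up and right (1.52 and 1.38), GUSB lowest (-0.70), and genes outside the axes are not drawn.

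The MiT transcription factors were read at the level of their own transcripts, which does not show where the proteins are in the cell. *TFEB* (gene ID 7942, chr6:41683978-41736223) stood at 769 with scrambled and 1052 with CCND3 shRNA in NALM-6, 746 and 975 in RS4;11, and 479 and 670.1 in BV-173. *TFEB* stood at 565, 605 and 509 with DMSO and 473, 527 and 641 with palbociclib, in the same order of lines. Knockdown levels were above the controls in every line, and palbociclib levels were above them in BV-173 alone. The means were 0.44 ± 0.12 (adjusted p = 0.0715) with knockdown and -0.04 ± 0.17 (adjusted p = 0.889) with palbociclib. The difference between the treatments did not pass the test at 0.48 ± 0.16 (adjusted p = 0.12).

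*TFE3* stood at 464 with scrambled and 664 with CCND3 shRNA in NALM-6, 776 and 1162 in RS4;11, and 882 and 1077 in BV-173. It stood at 662, 804 and 959 with DMSO and 666, 943 and 1144 with palbociclib, in the same order of lines. Treated levels were above controls in every line, least in NALM-6 with palbociclib, where they nearly met. *TFE3* was called with knockdown at 0.46 ± 0.12 (adjusted p = 0.0659) and not with palbociclib at 0.16 ± 0.13 (adjusted p = 0.433). The knockdown p ran from 0.0581 to 0.283 for *TFEB* and from 0.0442 to 0.352 for *TFE3* over the alternative settings. *MITF* stood at 0.202 with scrambled and 0.194 with CCND3 shRNA in NALM-6, 158 and 138 in RS4;11, and 36.4 and 40.0 in BV-173. Its levels were 0.336, 255 and 58.4 with DMSO and 0.636, 587 and 44.1 with palbociclib, in the same order of lines. NALM-6 held next to none of it, and only RS4;11 with palbociclib was clearly above its control. Its means of -0.04 ± 0.20 (adjusted p = 0.938) and 0.57 ± 0.40 (adjusted p = 0.359) did not pass the test.

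The difference between the treatments, knockdown less palbociclib within each line, was called for 8 members. *SCARB2* was the 1 with the higher ratio under knockdown (7.16% of all genes were called in that direction). The 7 with the higher ratio under palbociclib were *LAMP1*, *CTSC*, *GLA*, *GLB1*, *IDS*, *NEU1* and *ATP6V0E1* (4.16% of all genes). *SCARB2* differed by 0.58 ± 0.11 (adjusted p = 0.0356) and *GLB1* by -0.73 ± 0.13 (adjusted p = 0.0293). For *ATP6V0E1* the difference was -0.59 ± 0.12 (adjusted p = 0.043), for *IDS* -0.69 ± 0.19 (adjusted p = 0.0803) and for *GLA* -0.56 ± 0.15 (adjusted p = 0.0747). *LAMP1* gave -0.41 ± 0.11 (adjusted p = 0.0793) and *CTSC* -0.38 ± 0.11 (adjusted p = 0.098). Of these 8, *NEU1* and *ATP6V0E1* were called higher with each treatment, by more with palbociclib. The median difference of the members was -0.13 and that of all genes -0.01.

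The calls of the difference moved with the settings. Without the trend limma called 0 members in each direction (0.353% of all genes higher and 0.173% lower), where the counts at an unadjusted p under 0.05 were 3 higher and 8 lower. The share of all genes at an unadjusted p was not counted, so the unadjusted counts cannot be set against the genes at large. Without NALM-6 it called 0 higher (1 at an unadjusted p under 0.05) and 1 lower, without RS4;11 1 and 2, and without BV-173 2 and 2. Of all genes these settings called 2.84%, 3.89% and 4.81% higher and 0.767%, 2.11% and 2.66% lower, so that fewer were called at large as well. The proliferation genes, which differed in the same test, stand above with their levels, and their part in these differences was not tested.

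Other genes of the organelle came from lists of 141 symbols, of which 129 were in all 6 tables. Knockdown gave 23 of the 129 called higher and 4 called lower. Palbociclib gave 41 and 4, and the difference 3 higher and 15 lower. Of all genes 4.95% were called higher and 7.48% lower with knockdown, 11.2% and 13.6% with palbociclib, and 7.16% and 4.16% in the difference. The shares of the lists called higher were 17.8% with knockdown and 31.8% with palbociclib, and 46.8% of the members were with each. By list, further hydrolases and cofactors gave 6 of 28 higher with knockdown and 12 with palbociclib, where the 6 include *TPCN1*, a cation channel of the membrane that was put in this list. Further membrane proteins and transporters gave 6 and 10 of 28, and mannose 6-phosphate sorting gave 2 and 6 of 14, counting *SUMF1*, which activates sulfatases, in both. Further V-ATPase subunits and assembly factors gave 1 and 2 of 14 (7.14% and 14.3%), near the shares of all genes. Regulators of mTORC1 and MiT at the lysosome gave 3 and 5 of 24, and autophagy genes 5 and 6 of 21.

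Past 1.5-fold in the same direction in all 3 lines with knockdown were *IDUA*, *CTSO*, *IFI30* and *CD68*, all higher (0.609% of all genes were past it higher and 1.83% lower). *IDUA*, the iduronidase that acts beside *IDS*, stood at 144 with scrambled and 366 with CCND3 shRNA in NALM-6, 399.8 and 945 in RS4;11, and 177 and 275 in BV-173. *IDUA* stood at 92.2, 235 and 139 with DMSO and 690.3, 1023 and 594 with palbociclib, in the same order of lines. Each treated group was above its control, most of all NALM-6 with palbociclib. The means were 1.08 ± 0.18 (adjusted p = 0.0215) and 2.37 ± 0.22 (adjusted p = 0.00672), and the difference was called at -1.30 ± 0.19 (adjusted p = 0.0181). *CTSO*, another cysteine protease, gave 0.88 ± 0.15 (adjusted p = 0.0209) and 1.75 ± 0.25 (adjusted p = 0.0117). *IFI30*, a thiol reductase of antigen processing, gave 0.96 ± 0.12 (adjusted p = 0.0176) and 0.73 ± 0.24 (adjusted p = 0.0944). *CD68* gave 0.81 ± 0.16 (adjusted p = 0.0292) and 0.61 ± 0.18 (adjusted p = 0.0673).

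With palbociclib 16 genes of the lists were past 1.5-fold higher in all 3 lines (4.66% of all genes) and 1 lower (6.16%). The 16 were *IDUA* and *CTSO* with the hydrolases *ARSA*, *FUCA1* and *SIAE*, the lipid presenter *GM2A*, the transporters and membrane proteins *MFSD1*, *CTNS*, *SIDT2* and *SLC29A3*, the sorting genes *IGF2R*, *GNPTG* and *NAGPA*, the sulfatase activator *SUMF1*, and the mTORC1 genes *RRAGB* and *AKT1S1*. *IGF2R*, the large mannose 6-phosphate receptor, had a mean of 0.89 ± 0.12 (adjusted p = 0.0101), and the cystine exporter *CTNS* 1.47 ± 0.17 (adjusted p = 0.00792). *FNIP2*, a partner of folliculin, was the 1 lower. It stood at 672 with DMSO and 368 with palbociclib in NALM-6, 413 and 228 in RS4;11, and 280.3 and 116 in BV-173, and its mean was -1.0 ± 0.18 (adjusted p = 0.0203). With knockdown it was also called lower, at -0.58 ± 0.14 (adjusted p = 0.0559).

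Divided by length, *LAPTM5*, *GABARAP* and *CD164* were the most abundant genes of these lists over the 12 groups. *LAPTM5*, a lysosomal protein of blood cells, stood at 11500 per 1000 bases in NALM-6, 4450 in BV-173 and 7320 in RS4;11 with DMSO. *CD164*, a sialomucin, stood at 2120, 2150 and 4600 per 1000 bases in the same groups, and the autophagy gene *GABARAP* at 3790, 2820 and 2590. *LAPTM5* was called higher with palbociclib at 0.81 ± 0.20 (adjusted p = 0.0462) and not with knockdown at 0.25 ± 0.16 (adjusted p = 0.385).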

How the data were processed

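Reads were cleaned by the authors (SOAPnuke), aligned to hg38 by Bowtie2 and turned into gene levels by RSEM, and the authors compared the 2 groups of each table with DESeq2. The deposited tables hold 1 signal per gene and group, normalized by the authors between the 2 groups, for 34 samples in 12 groups. No value per sample is given, so depth per sample and replicate error are unknown. The authors' ratios, p-values and up or down calls were not used.

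Here the log2 ratio of treated to control level was taken in each line, with no pseudocount, since no level was 0. Mean ratios over n = 3 lines, and the difference between treatments, were tested two-sided with limma 3.58.1 (R 4.3.3; lmFit and eBayes with an intensity trend), with Benjamini-Hochberg adjustment over 13307 genes and calls at an adjusted p under 0.1. In single lines, genes past 1.5-fold were counted without a test. The procedure was tested on simulated data. Alternatives were centring each comparison on its median, a mean level of at least 100, no trend, an adjusted p under 0.05, 1 added to each level, a fold of 2 and each line left out.

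Levels in every group were given for the 5 members with the largest mean rise and the 5 with the largest mean fall in each treatment, for those called in the difference and for the MiT factors. Of the other lists, genes past 1.5-fold in all 3 lines and the 3 most abundant per length were named, and other genes were named after their values were seen. Gene coordinates and promoters came from RefSeq (GRCh38.p14), matched by gene ID. Members and lists were chosen with earlier results of these data known. Python 3.11.15, numpy 2.4.6, pandas 2.3.3 and matplotlib 3.10.9 were used. Results of some single genes of the further lists and marker lists are not reported here.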

Additional observations from a re-analysis of the deposited data

How the results depend on the processing

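The 45 named results of single genes were recomputed under the alternatives, which gave 358 values. *SMPD1* lay under the mean level of 100, so its results have no value under that setting. Of the 358 values, 283 stayed on their side of the threshold, 74 kept their direction but lost the call and 1 gained it. Among the 283, 7 values of 5 results that were not called under either setting took the other sign, when a line was left out (*GLA*, *LAMP1* and *MITF* with knockdown, *CD63* and *TFEB* with palbociclib). No called result changed sign. The counts of members called moved as follows, and the cause was not tested unless the setting itself shows it. A percentage beside a count is the share of all genes under the same setting at the adjusted p. For counts at an unadjusted p the share of all genes was not taken. With each comparison centred, 3 were called higher in the difference (8.2%), and 2 in NALM-6 (17.2%) and 1 in BV-173 (13.2%) were past 1.5-fold lower with palbociclib. With genes of a mean level of at least 100, 2 were called higher in the difference (9.84%). Without the trend, knockdown gave 8 higher (2.09%) and 0 lower (4.15%, and 1 member lower at an unadjusted p under 0.05), palbociclib 14 higher (8.44%), and the difference 0 higher (0.353%) and 0 lower (0.173%), with 3 and 8 unadjusted. At an adjusted p under 0.05, a stricter threshold, knockdown gave 9 higher (2.0%) and 0 lower (4.32%, and 2 members lower at an unadjusted p under 0.05) and the difference 2 lower (1.3%).

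Leaving out a line leaves fewer ratios. Without NALM-6, knockdown gave 10 higher (2.09%) and 0 lower (3.79%, and 1 member unadjusted), and the difference 0 higher (2.84%, and 1 member unadjusted) and 1 lower (0.767%). Without RS4;11, knockdown gave 5 higher (0.917%) and 0 lower (2.78%, and 1 member unadjusted), palbociclib 10 higher (5.78%) and the difference 2 lower (2.11%), and the members' median with knockdown was 0.24. Without BV-173, knockdown gave 2 lower (10.5%), palbociclib 14 higher (7.49%) and the difference 2 higher (4.81%) and 2 lower (2.66%). At a fold of 2, knockdown gave 4 higher (2.28%) and 0 lower (3.08%) in NALM-6, 5 (3.15%) and 0 (3.91%) in RS4;11 and 1 higher (0.447%) in BV-173. Palbociclib gave 3 (11.4%) and 0 (6.87%) in NALM-6, 8 (7.13%) and 0 (7.07%) in RS4;11 and 6 higher (4.76%) in BV-173.

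The ratios set treated against control within each line. By replicate number, which the labels repeat between groups, the fit could not be made. No paired analysis was possible because the tables hold 1 level per group, which leaves no replicates to match. Leaving out each replicate and a replicate block could not be run, as the columns are per group. Depth is not given, so what it limits is unknown.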

Other observations

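Beside *FNIP2*, 3 genes of the further lists were called lower with knockdown, and they are named here after their values were seen. *LAPTM4A*, a transmembrane protein of late endosomes and lysosomes, stood at 1378 with scrambled and 536 with CCND3 shRNA in NALM-6, 1781 and 1011 in RS4;11, and 1146 and 804 in BV-173. It stood at 1317, 1842 and 1333 with DMSO and 1331, 2903 and 1775 with palbociclib, in the same order of lines. Every knockdown group was below its control and every palbociclib group above it. The means were -0.90 ± 0.16 (adjusted p = 0.0243) and 0.36 ± 0.16 (adjusted p = 0.17), and the difference was called at -1.26 ± 0.14 (adjusted p = 0.00845). *VMA21*, which assembles the V-ATPase, stood at 1549 with scrambled and 661 with CCND3 shRNA in NALM-6, 1062 and 804 in RS4;11, and 1138 and 902 in BV-173, with a mean of -0.66 ± 0.18 (adjusted p = 0.0759) and a called difference of -0.85 ± 0.14 (adjusted p = 0.0231). *GABARAPL2*, of the autophagosome, stood at 1010.2 with scrambled and 451 with CCND3 shRNA in NALM-6, 945 and 588 in RS4;11, and 803 and 669 in BV-173, with a mean of -0.70 ± 0.17 (adjusted p = 0.0551) and a called difference of -0.94 ± 0.18 (adjusted p = 0.0331). Genes called lower with palbociclib included *DNASE2* and *ATG3*, at -1.06 ± 0.23 (adjusted p = 0.0343) and -0.39 ± 0.13 (adjusted p = 0.095). In the difference *DNASE2* and the GATOR subunit *NPRL3* were called higher, at 1.09 ± 0.28 (adjusted p = 0.076) and 0.42 ± 0.11 (adjusted p = 0.0833).

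A pair of genes from these lists, also named after their values were seen, had levels that differed widely between the lines. *LAPTM4B* stood at 1199.9 with scrambled shRNA and 1118 with DMSO in NALM-6, 4.46 and 1.64 in RS4;11, and 20703 and 18308 in BV-173. *TFEC*, the remaining MiT family gene, stood at 0.201 with scrambled shRNA and 0.455 with DMSO in NALM-6, 2.12 and 0.987 in RS4;11, and 3166 and 3507 in BV-173. Neither was called with either treatment.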
